A study of Mus musculus with 8 samples.

Results

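Of 9 G protein-coupled receptor genes with known roles in adipocytes or in incretin and light sensing, 7 had a probe set of their own among the 18820 genes compared. These were Opn3, Glp1r, Gipr, Ffar4, Hcar1, Hcar2 and Ptger3, while Adora1 and Adra2a were not analysed here. The set was chosen by measured values of this comparison, because Opn3 was lower and Glp1r higher in Sel1l-/- tissue, so the differences of the 7 receptors are given as a description and without p-values. Which of them passed the limma threshold is only counted beside the share of all genes, and nothing is read from it. Each gene was read from its brightest single-gene probe set over the 8 arrays, and each of the 7 had 1 single-gene probe set.

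White adipose tissue came from 8 male mice of mixed C57BL/6N and C57BL/6J background that had been fed Research Diets D12492, which is rich in fat, over 5 weeks. In 4 of them, labelled Sel1l-/-, floxed Sel1l had been deleted with a Cre transgene driven by the promoter of adiponectin, an adipocyte hormone, and 4 were wildtype (WT). Whether the WT mice carried floxed alleles or Cre, their age and the fat depot are not stated in the sources used here. SEL1L, the protein of Sel1l, works with the ubiquitin ligase HRD1, a complex that clears misfolded proteins from the endoplasmic reticulum (ER). This promoter targets adipocytes, whereas the tissue RNA also comes from vessels, macrophages, fibroblasts and mesothelium, and fewer cells of a type and less RNA per cell cannot be told apart in these data.

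G protein-coupled receptors span the cell membrane and are folded in the ER before they reach it. Receptors that couple to the stimulatory protein Gs raise cyclic AMP, which activates protein kinase A and drives lipolysis in adipocytes, and receptors that couple to the inhibitory Gi proteins lower cyclic AMP and restrain lipolysis. Glp1r and Gipr, the receptors of the incretin hormones GLP-1 and GIP, couple to Gs. Hcar1, the lactate receptor, Hcar2, the receptor of β-hydroxybutyrate and niacin, and Ptger3, the EP3 receptor of prostaglandin E2, couple to Gi. Ffar4, also known as Gpr120, senses long-chain fatty acids and couples mainly to Gq, and Opn3 is a non-visual opsin found in many tissues, adipose tissue among them.

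The stretches before the start sites of Opn3, Ffar4 and Glp1r are shown because Opn3 and Glp1r had the largest differences of the set and Ffar4 varied with Opn3 from mouse to mouse. They are RefSeq sequences of build GRCm38.p6, 250 bases each, written 5′ to 3′ on the strand of the gene. They cover chr1:175692633-175692882 on the minus strand for Opn3, chr19:38096829-38097078 on the plus strand for Ffar4 and chr17:30901617-30901866 on the plus strand for Glp1r. Capitals mark GC boxes (GGGCGG on either strand).
Opn3: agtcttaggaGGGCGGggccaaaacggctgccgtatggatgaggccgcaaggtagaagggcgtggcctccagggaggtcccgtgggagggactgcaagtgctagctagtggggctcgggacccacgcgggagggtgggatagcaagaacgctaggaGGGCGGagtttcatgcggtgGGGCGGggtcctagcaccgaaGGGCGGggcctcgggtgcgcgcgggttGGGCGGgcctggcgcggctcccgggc
Ffar4: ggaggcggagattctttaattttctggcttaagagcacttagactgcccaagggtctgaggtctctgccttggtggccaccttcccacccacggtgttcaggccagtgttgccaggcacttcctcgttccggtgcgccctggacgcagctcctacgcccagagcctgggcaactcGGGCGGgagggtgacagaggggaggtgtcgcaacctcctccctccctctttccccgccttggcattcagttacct
Glp1r: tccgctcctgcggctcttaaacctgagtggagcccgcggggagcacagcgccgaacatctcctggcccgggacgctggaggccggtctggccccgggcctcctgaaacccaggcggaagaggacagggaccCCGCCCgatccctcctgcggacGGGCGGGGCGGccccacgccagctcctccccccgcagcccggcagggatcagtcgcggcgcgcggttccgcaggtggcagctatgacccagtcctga

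The window of Opn3 held 5 GC boxes, that of Glp1r 3, of which a pair share a base, and that of Ffar4 1. Of all 32851 windows of this length in the table, 32.7% held at least 1. Of the 7 receptors, 5 had a window in the table, and the windows of Hcar1 and Ptger3 held 0 and 3 GC boxes. In none of the 5 windows, on either strand, was there an ER stress response element (CCAAT, any 9 bases, then CCACG), an XBP1 element (TGACGTGG), an amino acid response core (TGATGNAA), a cyclic AMP response element (TGACGTCA) or a CCAAT box, which overlaps the first of these. The shares of all windows that held them were 0.113%, 0.563%, 3.45%, 1.55% and 33.8%. The 3 windows shown were 70.4% (Opn3), 61.2% (Ffar4) and 73.2% (Glp1r) G and C, where the median window had 52.4%. A match or its absence describes these letters only.

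The genotype labels were checked on Sel1l itself, which was 1.73-fold lower in Sel1l-/- tissue (limma adjusted p = 0.0109). That call was lost with the code letter of the mice (0.151) or their code number (0.0813) as a block and without moderation (0.0540). Array medians lay between 6.05 and 6.14 on the log2 scale, and correlations between arrays over all probe sets lay between 0.982 and 0.994. Of 8 adipocyte markers 0 passed the test, while their summed linear level was 45400 to 50000 in WT arrays and lower, at 37600 to 44900, in all Sel1l-/- arrays. Their mean log2 expression overlapped (11.71 to 12.02 against 11.41 to 11.94). Of 8 macrophage markers 0 passed, and their mean log2 expression was 9.86 to 10.76 in WT and 10.18 to 11.22 in Sel1l-/- mice, highest in WT 4 (10.76) and Sel1l-/- 4 (11.22). Of 6 endothelial markers Pecam1 fell (log2 fold change -0.39, limma adjusted p = 0.0290), and the summed linear level of the 6 was 7730 to 9250 in WT against 5530 to 6930 in Sel1l-/- arrays, with no overlap.

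Over the 7 receptors, 6 had a lower mean in Sel1l-/- than in WT tissue and 1, Glp1r, a higher one. The median log2 difference of the 7 was -0.36, where that of all genes was -0.00. Opn3 was past the limma threshold among the lower genes and Glp1r among the higher, which is 1 of 7 in each direction, where 0.685% of all genes were lower and 1.04% higher by this rule. These same 1 and 1 were the receptors whose 4 Sel1l-/- arrays did not overlap the 4 WT arrays, as was the case for 5.07% of all genes lower and 5.22% higher. Since the set was picked for this contrast, nothing is read from these counts.

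**Figure D1:**
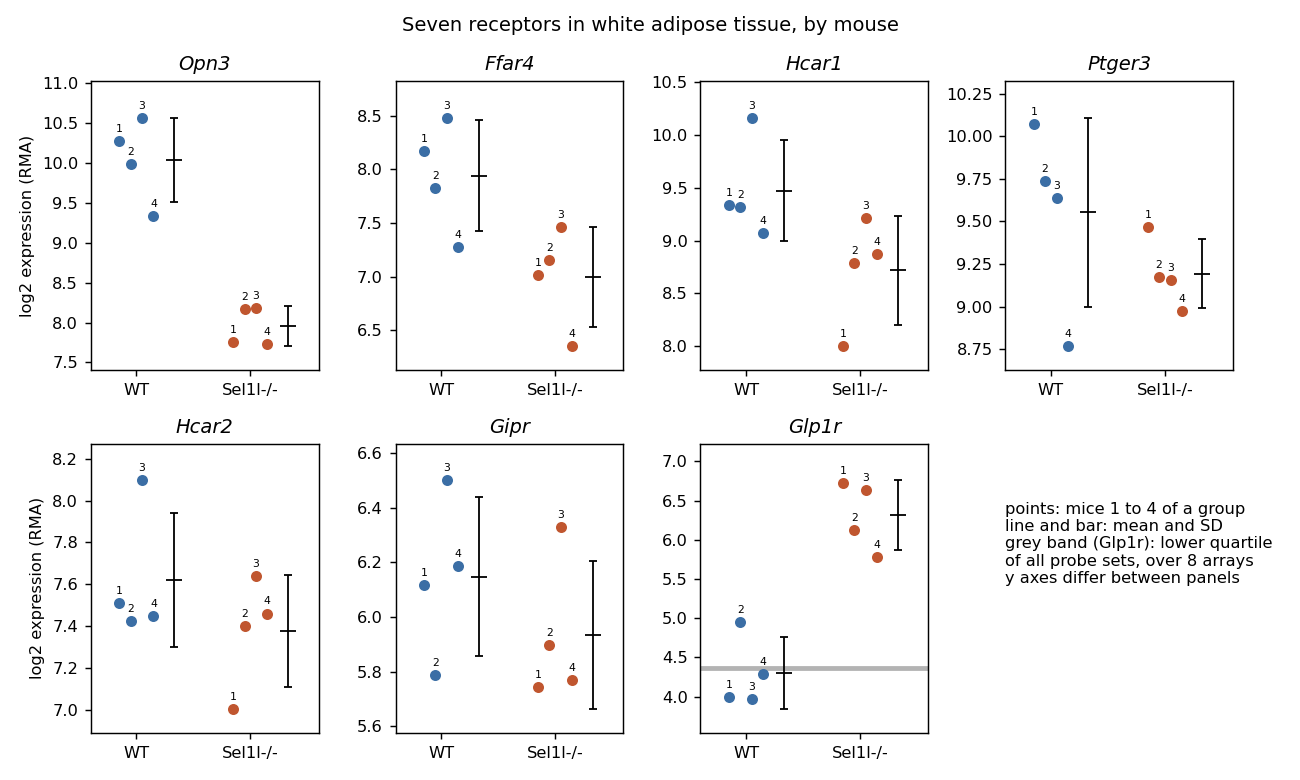
Log2 expression (RMA) of the 7 receptors, 1 panel each, in 4 WT (blue) and 4 Sel1l-/- (orange) mice; points are mice, numbered as in the labels, and the line with bar is the mean with SD. Opn3 and Glp1r have no overlap between the groups, while in the other 5 panels at least 1 Sel1l-/- mouse lies within the WT range or above it, and the Glp1r values of 3 WT mice lie below the grey band of the arrays' lower quartiles.

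Opn3 (probe set 10360454) read 10.27, 9.99, 10.56 and 9.33 in WT mice 1 to 4 and 7.75, 8.17, 8.19 and 7.73 in Sel1l-/- mice 1 to 4. The highest Sel1l-/- value lay 1.14 below the lowest WT value, which was that of WT 4. The WT mean was 10.04 ± 0.53 and the Sel1l-/- mean 7.96 ± 0.25 (SD, n = 4 each), a log2 difference of -2.08 or a 4.23-fold lower level. Of all genes, 0.0584% had a larger difference in either direction. Because the groups did not overlap, Opn3 was lower in the Sel1l-/- mouse of any pair. Between mice of the same number its log2 differences ran from -1.60 to -2.52.

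Ffar4 (probe set 10462881), the fatty acid receptor, read 8.17, 7.83, 8.48 and 7.28 in WT and 7.02, 7.15, 7.46 and 6.35 in Sel1l-/- mice. Of the WT values, 3 lay above all Sel1l-/- values, and WT 4 lay below Sel1l-/- 3, so the groups overlapped. The WT mean was 7.94 ± 0.52 and the Sel1l-/- mean 6.996 ± 0.468 (SD, n = 4 each), a log2 difference of -0.94 or a 1.92-fold lower level. It was lower in 4 of 4 same-numbered pairs, as was Hcar1, while Hcar2, Ptger3 and Gipr were lower in 3 of 4. Their exceptions were pair 4 for Hcar2 (0.01) and Ptger3 (0.21) and pair 2 for Gipr (0.11). The difference was -1.17 without WT 4 and -0.73 without Sel1l-/- 4, the lowest array of each group.

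The pair of hydroxycarboxylic acid receptors lie next to each other on chromosome 5 in the RefSeq order and are close paralogs, so probes of one could bind RNA of the other, which was not tested. Hcar1 (probe set 10533725), the lactate receptor, read 9.34, 9.32, 10.17 and 9.07 in WT and 8.00, 8.79, 9.22 and 8.87 in Sel1l-/- mice. WT 3 was the highest array and Sel1l-/- 1 the lowest, and the groups overlapped only where WT 4 lay below Sel1l-/- 3. The WT mean was 9.47 ± 0.48 and the Sel1l-/- mean 8.72 ± 0.51 (SD, n = 4 each), a log2 difference of -0.75 or a 1.69-fold lower level, and -0.51 without Sel1l-/- 1.

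Hcar2 (probe set 10533720), the receptor of β-hydroxybutyrate, read 7.51, 7.42, 8.10 and 7.45 in WT and 7.005, 7.40, 7.64 and 7.46 in Sel1l-/- mice. Only WT 3 lay above all Sel1l-/- arrays, and the other WT arrays lay within the Sel1l-/- range. The WT mean was 7.62 ± 0.32 and the Sel1l-/- mean 7.38 ± 0.27 (SD, n = 4 each), a log2 difference of -0.24, smaller than either SD. It was -0.09 without WT 3 and -0.05 between the group medians.

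Ptger3 (probe set 10497079), the prostaglandin receptor, read 10.07, 9.74, 9.64 and 8.77 in WT and 9.47, 9.17, 9.16 and 8.97 in Sel1l-/- mice. WT 1 to 3 lay above all Sel1l-/- arrays and WT 4 below all of them. The WT mean was 9.55 ± 0.56 and the Sel1l-/- mean 9.19 ± 0.20 (SD, n = 4 each), a log2 difference of -0.36. It rested on which WT arrays were counted, at -0.62 without WT 4 and -0.19 without WT 1.

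The incretin receptors differed in direction. Glp1r (probe set 10443690) read 3.99, 4.96, 3.98 and 4.29 in WT and 6.72, 6.12, 6.63 and 5.77 in Sel1l-/- mice. Its lowest Sel1l-/- value lay 0.82 above its highest WT value, that of WT 2. The WT mean of 4.30 ± 0.46 (SD, n = 4) was under the lower quartile of the arrays (4.33 to 4.37), so it is dim there and not shown to be above background. The Sel1l-/- mean was 6.31 ± 0.45 (SD, n = 4), a log2 difference of 2.01. Set against the lower quartile where a WT array fell under it, the level was at least 3.52-fold higher in Sel1l-/- tissue. Glp1r is best known from pancreatic islets. Of 5 measured islet markers 0 passed the test and 3 (Pdx1, Iapp and Gcg) were dim in both groups. Their summed linear level ran from 106 to 113 in WT mice and from 105 to 117 in Sel1l-/- mice. Of 4 measured pancreatic acinar markers 0 passed and 2 (Ctrb1 and Try4) were dim in both groups. Their summed linear level ran from 116 to 200 in WT mice and from 163 to 239 in Sel1l-/- mice. The part of pancreatic cells in the Glp1r values was not tested.

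Gipr (probe set 10560443), the GIP receptor, read 6.12, 5.79, 6.50 and 6.19 in WT and 5.74, 5.90, 6.33 and 5.77 in Sel1l-/- mice. The groups overlapped widely, and the highest array of each was mouse 3. The WT mean was 6.15 ± 0.29 and the Sel1l-/- mean 5.93 ± 0.27 (SD, n = 4 each), a log2 difference of -0.21, smaller than either SD. It was -0.09 without WT 3.

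**Figure D2:**
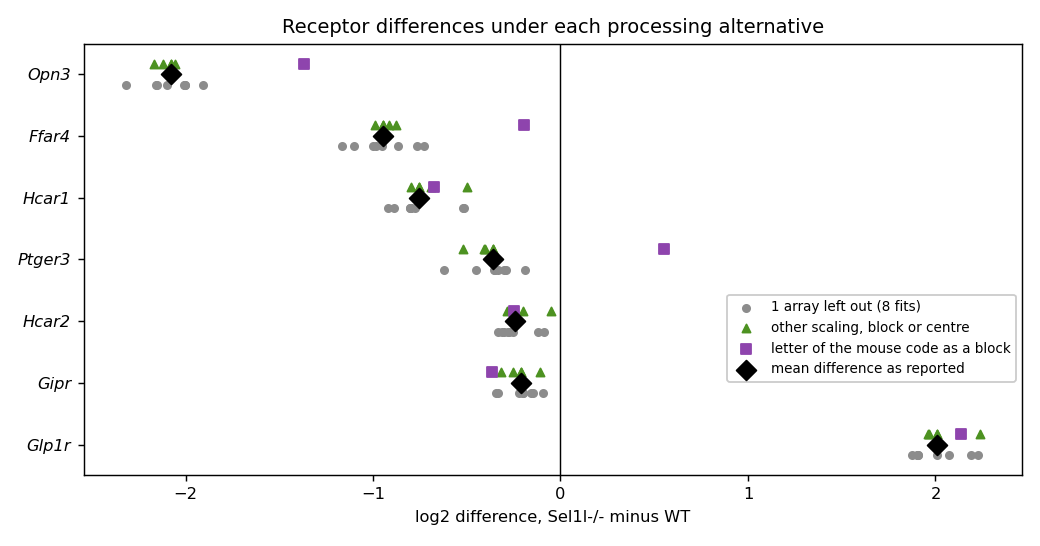
Log2 difference (Sel1l-/- minus WT) of each receptor as reported (diamond), with 1 array left out (grey points), with the code letter as a block (square) and under the other alternatives (triangles). Opn3 stayed between -2.32 and -1.37 and Glp1r between 1.87 and 2.24, whereas Ptger3 went from -0.36 to 0.55 with the letter block.

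The codes of the mice hold a letter and a number whose meaning is not stated in the sources used here. Both genotypes occurred only under letter F, with WT 4 against Sel1l-/- 1 and 2, and the letter as a block rests on these 3 mice. Within letter F the log2 difference was -1.37 for Opn3, -0.19 for Ffar4, -0.68 for Hcar1, -0.25 for Hcar2, -0.36 for Gipr, 2.13 for Glp1r and 0.55 for Ptger3. WT 4 was the lowest WT array for Opn3, Ffar4, Hcar1 and Ptger3. Within the code numbers 5, 7 and 9, Opn3 differed by -1.61, -2.25 and -2.39 and Glp1r by 2.49, 1.29 and 2.15. Ffar4 differed by -0.27, -1.15 and -1.33, and Ptger3 by -0.26, -0.52 and -0.46. Within number 5, Hcar1 (0.01), Hcar2 (0.16) and Gipr (0.18) were not lower in Sel1l-/- tissue, while within numbers 7 and 9 they were (-0.88 and -1.38, -0.19 and -0.70, -0.03 and -0.60).

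Mice of the same genotype also differed from each other, and several receptors did so together. This was described by the deviation of each mouse from the mean of its group, which removes the genotype difference, and by Pearson's r of these deviations over the 8 arrays, given without a test. Hcar1 and Hcar2 had r = 0.98 and Opn3 and Ffar4 r = 0.90. Opn3 had r = 0.70 with Hcar1, 0.67 with Ptger3, 0.65 with Hcar2 and 0.47 with Gipr. Glp1r had r between -0.46 (Hcar2) and 0.14 (Ptger3) with the other 6. All of these values share the same 8 arrays and their normalization.

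The deviations also went with those of cell type markers. The mean of the 5 mesothelial markers (Msln, Upk3b, Krt19, Lrrn4 and Upk1b) had r = 0.97 with Ffar4 and 0.87 with Opn3. The mean of the 8 adipocyte markers had r = 0.85 with Ffar4 and 0.59 with Opn3, and that of the 8 macrophage markers -0.83 with Ffar4, -0.70 with Ptger3 and -0.65 with Opn3. The mean of the 6 pericyte and smooth muscle markers had r = -0.87 with Hcar2, -0.83 with Hcar1 and 0.56 with Glp1r. Glp1r also had r = -0.78 with the mean of the 4 measured nerve and Schwann markers. That mean was low, at 4.82 to 4.93 in WT and 4.80 to 5.02 in Sel1l-/- mice, where the arrays' lower quartiles were 4.33 to 4.37. The r of Glp1r was 0.58 with the mean of the 6 brown adipocyte markers. In both lists 0 markers passed the test, and the WT deviations of Glp1r may be background. The mean of the 5 measured neutrophil markers had r = -0.90 with Ptger3 and stood highest in WT 4, at 5.54 against 4.46 to 4.89 on the other 7 arrays. WT 4 was also the lowest array for Ptger3. Of the pericyte and smooth muscle markers 0 of 6 passed the test, with summed linear levels of 7010 to 7950 in WT and 6290 to 7810 in Sel1l-/- tissue. Of the neutrophil markers 0 of 5 passed, 1 (Cxcr2) was dim in both groups, and the summed levels were 148 to 461 and 114 to 160. The mesothelial mean was 10.60, 10.05, 10.84 and 9.82 in WT and 9.99, 10.01, 10.27 and 9.42 in Sel1l-/- mice, with 0 of 5 markers past the test and summed linear levels of 5490 to 9980 and 3960 to 7230. The groups overlapped on the mesothelial mean, and its mean difference of -0.40 lay beside -0.94 for Ffar4 and -2.08 for Opn3. The part of mesothelium, macrophages, neutrophils, vessels, nerve or brown adipocytes in the receptor values was not tested.

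**Figure D3:**
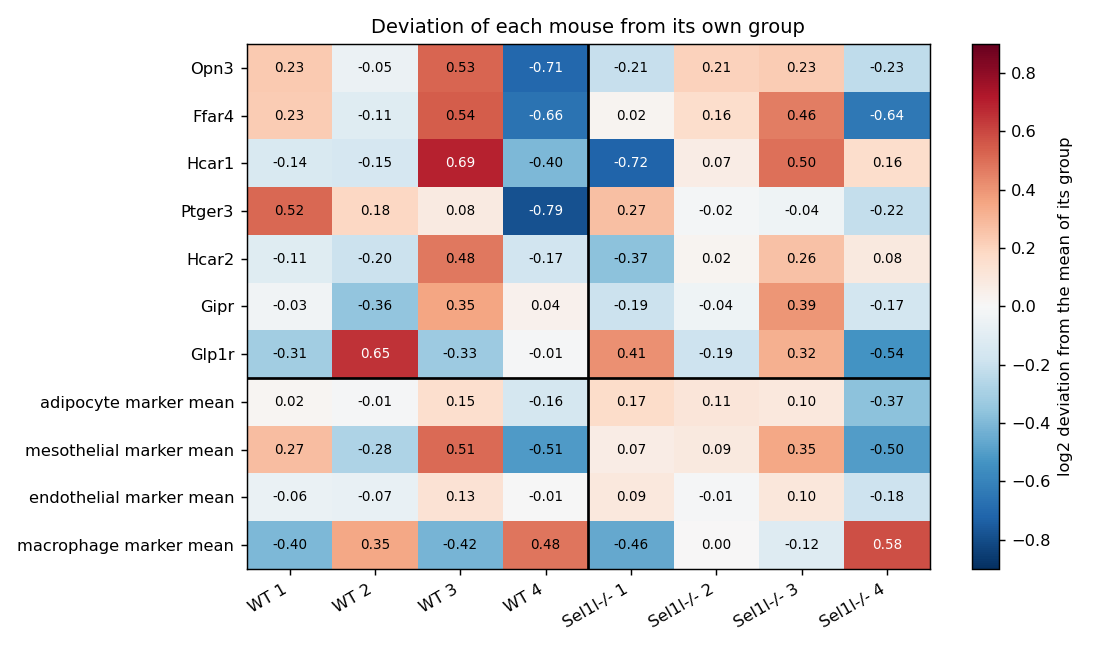
Log2 deviation of each mouse (columns) from the mean of its own group, for the 7 receptors (upper rows) and for the means of 4 marker lists (lower rows); red is above and blue below the group mean. Opn3, Ffar4 and the mesothelial mean share their pattern, with WT 3 high (0.53, 0.54 and 0.51) and WT 4 low (-0.71, -0.66 and -0.51), and the macrophage mean runs the other way in WT 4 (0.48) and Sel1l-/- 4 (0.58).

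Among 9409 genes brighter than the median gene, those most like Opn3 in these deviations were Mbtps1, the site-1 protease of the Golgi (r = 0.99), Rere, a nuclear receptor corepressor (r = 0.99), and Cyp2s1, a cytochrome P450 (r = 0.98). Of these genes 143, or 1.52%, had r above 0.9 with Opn3. The Sel1l-/- and WT means of Mbtps1, Rere and Cyp2s1 differed by -0.07, -0.07 and -0.05. The genes most like Glp1r were Mtch1, a mitochondrial carrier homolog (r = 0.97), Trappc5, a subunit of a vesicle tethering complex (r = 0.95), and B4galt3, a galactosyltransferase (r = 0.94), and 7 genes, or 0.0744%, had r above 0.9 with it. In WT mice Glp1r was dim, so the WT deviations behind these values may be background and this order describes the arrays only.

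Neighbours in the RefSeq order were read for Opn3 and Glp1r. Chml, a Rab escort protein gene annotated as overlapping Opn3 on chromosome 1, was 8.51, 8.09, 8.37 and 8.21 in WT and 7.81, 7.77, 7.83 and 7.58 in Sel1l-/- mice. All Sel1l-/- arrays lay below all WT arrays. Chml fell from 8.30 ± 0.18 to 7.75 ± 0.11 (SD, n = 4 each), or 1.46-fold (log2 difference -0.55 with a standard error of 0.10, adjusted p = 0.0377 by limma). With single arrays dropped the call held in 1 of 8 fits, and the adjusted p reached 0.116 without Sel1l-/- 2. It was also lost without moderation (0.104) and with the code letter (0.534) or the code number (0.147) as a block. Because Chml overlaps Opn3, RNA of Opn3 could reach its probes, which was not tested. The deviations of Chml had r = 0.55 with those of Opn3.

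On the other side of Opn3, Kmo, kynurenine 3-monooxygenase, had a WT mean of 6.56 ± 0.45 and a Sel1l-/- mean of 6.53 ± 0.20 (SD, n = 4 each; limma adjusted p = 0.960). Beside Glp1r on chromosome 17, Dnah8, a dynein heavy chain, differed by -0.16 on the log2 scale (limma adjusted p = 0.484) and Umodl1 by 0.01 (adjusted p = 0.960, and -0.03 with arrays centred on their medians). Neither gene beside Glp1r passed the test.

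**Figure D4:**
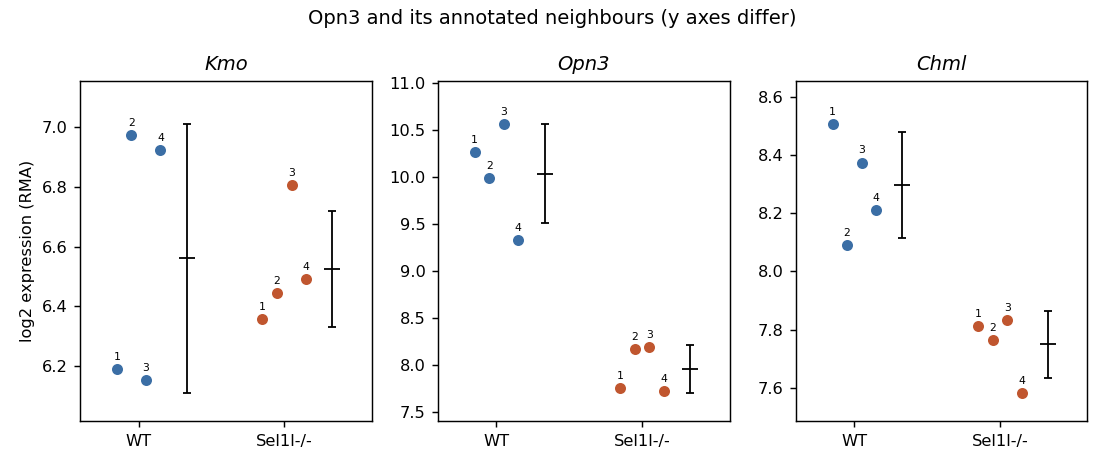
Log2 expression (RMA) of Opn3 and of its annotated neighbours Kmo and Chml in 4 WT (blue) and 4 Sel1l-/- (orange) mice; points are mice and the line with bar is the mean with SD, on y axes that differ. Opn3 and Chml have no overlap between the groups, while the Kmo values overlap.

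Other receptors of the same signalling classes did not pass the test. Of 72 listed, 58 were measured and limma called 0, with 0 higher and 9 lower at an unadjusted p under 0.05 and 0 called without moderation. Over all genes 7.15% were higher and 7.85% lower at that unadjusted p, or 15.0% together. The median log2 fold change of the 58 receptors was -0.07, and single values ran from -1.05 to 1.06. Of 15 Gs-coupled receptors the smallest p was that of Pth1r, the parathyroid hormone receptor (log2 fold change -0.61, adjusted p = 0.232, but 0.0238 without WT 4). Of 19 Gi-coupled receptors it was that of S1pr1, the sphingosine 1-phosphate receptor of endothelium and lymphocytes (-0.41, adjusted p = 0.0913), whose arrays did not overlap. Of 18 Gq-coupled receptors it was that of Agtr1a, an angiotensin II receptor (-0.33, adjusted p = 0.194), and of 6 other opsins and retinal receptors that of Opn1sw, the short-wave cone opsin (-0.10, adjusted p = 0.643).

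Where 358 of all 18820 genes were higher and 367 lower with the replicate number as a block, 3 of these 58 receptors passed. They were Oxtr, the oxytocin receptor, at a log2 fold change of -1.05, and the nucleotide receptors P2ry14 at 0.44 and P2ry6 at 0.45. These 3 were named after their values were seen, and their adjusted p without the block was 0.252, 0.392 and 0.658. Whether Opn3 and Glp1r differ more than other receptors was not tested.

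Of 27 measured heterotrimeric G protein subunits, 2 fell and 0 rose by limma (2 higher and 3 lower at an unadjusted p under 0.05, against 7.15% and 7.85% of all genes), with a median log2 fold change of -0.03. Gnai1, an α subunit of the inhibitory Gi class, was 11.60, 11.39, 11.52 and 11.55 in WT and 10.91, 11.01, 10.997 and 10.89 in Sel1l-/- mice, without overlap. It fell 1.48-fold, from 11.52 ± 0.09 to 10.95 ± 0.06 (SD, n = 4 each; log2 difference -0.56 with a standard error of 0.07, adjusted p = 0.00767 by limma). The call held with any single array dropped (adjusted p at most 0.0378), but not with the code letter or the code number as a block (0.202 and 0.0571). Gng11, a γ subunit, fell 1.43-fold (7.12 ± 0.10 to 6.61 ± 0.13, SD, n = 4 each, adjusted p = 0.0235). Its call held in 3 of 8 such fits (up to 0.0838, without Sel1l-/- 2). It was also lost with the code number as a block (0.140) and without moderation (0.0688). With the code letter as a block the log2 difference of Gng11 was -0.38, against -0.52 without a block.

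Of 31 measured genes of cyclic AMP synthesis, breakdown and protein kinase A, 1 fell and 0 rose by limma, where 0 were higher and 6 lower at an unadjusted p under 0.05, against 7.15% and 7.85% of all genes. The member that fell was Pde4b, a phosphodiesterase that degrades cyclic AMP. It read 7.38, 7.38, 7.71 and 7.65 in WT and 7.07, 6.80, 7.02 and 6.81 in Sel1l-/- mice, which is 1.52-fold lower (log2 difference -0.60 with a standard error of 0.10, adjusted p = 0.0299 by limma) and without overlap. Dropping any single array lost the call, with adjusted p between 0.0553 and 0.104. It was also lost with the code number as a block (0.153) and without moderation (0.0934). With the code letter as a block the log2 difference of Pde4b was -0.71. With the replicate block 4 genes of this list were lower and 0 higher, against 367 and 358 of all 18820 genes. The 4 were Pde4b and the adenylyl cyclases Adcy4, Adcy5 and Adcy6, the cyclases being named after their values were seen.

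Of 26 receptor kinases, arrestins, RGS proteins and accessory proteins limma called 0, with 1 higher and 7 lower at an unadjusted p under 0.05 (against 7.15% and 7.85% of all genes) and 0 called without moderation. The smallest p was that of Rgs5, a brake on G protein signalling that is also a pericyte marker (log2 fold change -0.44, adjusted p = 0.0652, and 0.0330 with the replicate block). Of 23 cyclic AMP-responsive and lipolysis genes limma also called 0, with 0 higher and 6 lower at an unadjusted p under 0.05 (against 7.15% and 7.85% of all genes) and 0 called without moderation. The smallest p there was that of Per1, a clock gene that cyclic AMP induces (-0.48, adjusted p = 0.0629, and 0.0330 with the replicate block). With that block 1 of the 26 was higher and 3 lower, and 0 of the 23 higher and 4 lower. Of all 18820 genes, 358 were higher and 367 lower with it.

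Of 29 measured genes that make, carry or clear ligands of the receptors, 1 rose and 1 fell by limma, where 1.04% and 0.685% of all genes did. At an unadjusted p under 0.05, 4 were higher and 6 lower, against 7.15% and 7.85% of all genes. Both genes called by limma handle lactate, the ligand of Hcar1, while Ldha, Slc16a3 and Slc16a7 of the same list were not called. Slc16a1, the monocarboxylate transporter MCT1, was 10.26, 10.14, 10.44 and 9.999 in WT and 10.93, 10.88, 11.07 and 11.26 in Sel1l-/- mice. It rose 1.77-fold, without overlap (log2 difference 0.82 with a standard error of 0.12, adjusted p = 0.0142 by limma). With single arrays dropped the call held in 5 of 8 fits, and the adjusted p reached 0.0554 without Sel1l-/- 3. The Slc16a1 call was also lost with the code number as a block (0.0965) and without moderation (0.0651). With the code letter as a block its log2 difference was 0.90. Ldhb, the lactate dehydrogenase subunit that favours the use of lactate, fell 1.47-fold (adjusted p = 0.0287). That call held in 1 of those 8 fits (up to 0.0811, without Sel1l-/- 3). It was also lost with the code number as a block (0.130) and without moderation (0.0811). With the code letter as a block the log2 difference of Ldhb was -0.75, against -0.56 without a block. With the replicate block 2 of the 29 were higher and 2 lower, against 358 and 367 of all 18820 genes. These arrays measure transcripts, not lactate or receptor protein.

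**Figure D5:**
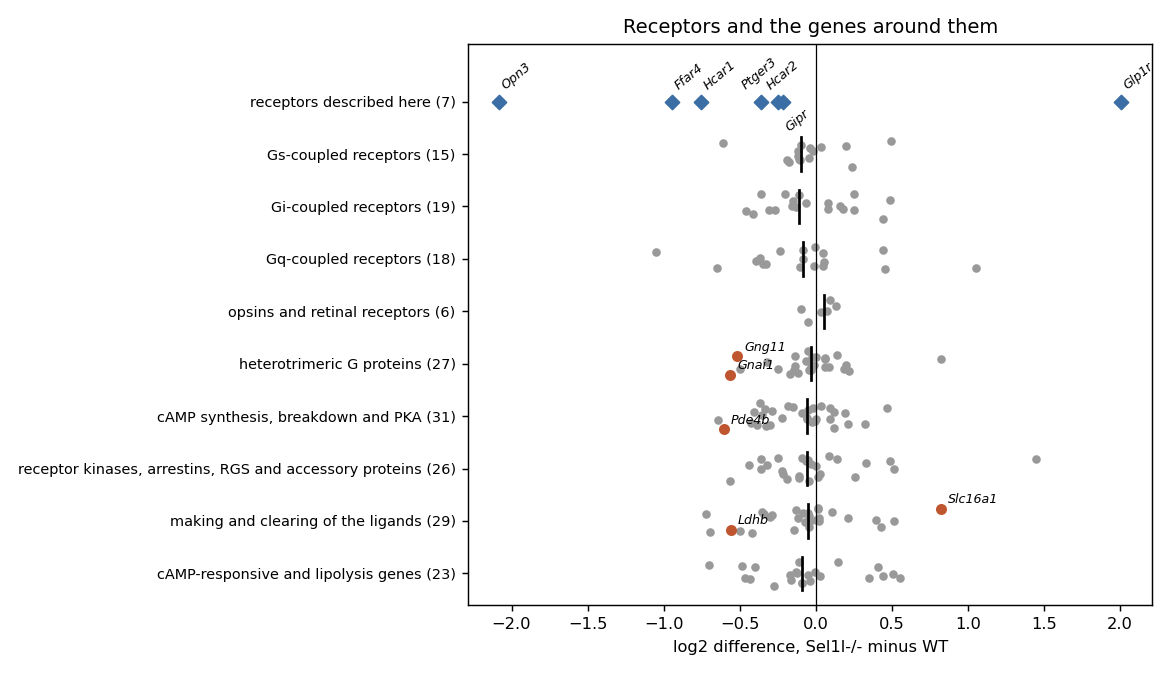
Log2 difference (Sel1l-/- minus WT) of the 7 receptors (diamonds) and of the measured genes of 9 lists around them (points, with the number of genes in brackets); orange points passed the limma threshold and black bars are list medians. The list genes past the threshold were Gnai1, Gng11, Pde4b and Ldhb, lower, and Slc16a1, higher.

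Over all 9 lists, 194 genes were measured, of which limma called 1 higher and 4 lower, where 1.04% and 0.685% of all genes were called, or 195 and 129. Centring the arrays on their medians turned the count over all genes into 119 higher and 154 lower. At an unadjusted p under 0.05, 7 of the 194 were higher and 37 lower, against 7.15% and 7.85% of all genes. Arrays did not overlap for 2 higher and 23 lower, against 5.22% and 5.07% of all genes. The median log2 fold change of the 194 list genes was -0.06. The lists were not tested as sets. With the replicate block 5 of the 194 were higher and 16 lower, against 358 and 367 of all genes.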

How the data were processed

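The deposited table holds 1 value per probe set and array, for 35556 probe sets and 8 arrays. The authors' values are on a log2 scale, which was read from their range of 1.72 to 13.88, and RMA is the method listed in the submitters' processing notes. RMA subtracts a background estimate, brings the arrays to common quantiles and combines the probes of a set, which makes the arrays' distributions alike and compresses differences of dim probe sets. Its version is not given in the sources used here. Of the probe sets, 21218 carried 1 gene symbol in the platform annotation. The brightest single-gene probe set stood for each of 18820 genes.

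Groups were compared over all genes by a moderated linear model (R 4.3.3, limma 3.58.1, functions lmFit and eBayes; two-sided, Benjamini-Hochberg adjustment over all genes, threshold 0.05), checked on simulated data. Precision is limited by 4 arrays per group. The receptors, gene lists and rule for named genes were chosen with earlier results of these data known. Named genes were the receptors, Sel1l, in each list up to 3 genes past the threshold or the gene with the smallest p, the 3 genes most like Opn3 and Glp1r, and their annotated neighbours. A gene was called dim where its group mean lay below the arrays' mean lower quartile. Promoter windows and gene order came from RefSeq, GRCm38.p6.

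Both groups have mice 1 to 4 in their titles. After removal of group means, the mice sharing a number correlated at 0.52, 0.11, 0.36 and 0.52 over 18820 genes, against at most 0.33 for different numbers. The numbers were tried as pairs in a replicate block, although the mice numbered 2, at 0.11, lay below the highest value for different numbers. This pairing comes from the data and no label says what the mice share. Calls and counts with the block are therefore a description and not independent support. Alternatives were array centring, averaged probe sets, leaving out dim genes, blocks, no moderation and single arrays left out. Python 3.11.15 with pandas 2.3.3 and matplotlib 3.10.9 drew the figures.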

Additional observations from a re-analysis of the deposited data

Results flagged for a closer look

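Of 58 sets of 4 arrays, 1 for each named gene in each genotype, 2 held a mouse far from the other 3, and chance alone gives about 1 in 20. Hcar2 in WT tissue read 8.10 in mouse 3, where the next highest WT value was 7.51 and the lowest 7.42. WT 3 was also the highest WT array for Opn3, Ffar4, Hcar1 and Gipr. Ldhb in WT tissue read 8.66 in mouse 4, where the next highest was 8.39 and the lowest 8.34.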

How the results depend on the processing

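Each of the 7 receptors kept its direction under the alternative scalings, blocks and single arrays left out, except Ptger3, at 0.55 with the code letter as a block. That block also moved Opn3 to -1.37 and Ffar4 to -0.19, and rests on 1 WT and 2 Sel1l-/- mice. The replicate block leaves the mean differences of the receptors as they are. Genes called higher and lower numbered 195 and 129. They were 119 and 154 with arrays centred on their medians, 358 and 367 with the replicate block, 7 and 13 with the letter block, 8 and 3 with the code number as a block, 87 and 37 without moderation, and 66 to 244 and 31 to 140 with 1 array left out. List genes called higher and lower were 1 and 4. They were 5 and 16 with the replicate block, 0 and 0 with the letter or the number block, 0 and 1 without moderation, and 0 to 1 and 1 to 5 with 1 array left out. Among genes not called, Pth1r (0.020) and Dnah8 (0.12) turned sign with the letter block and Umodl1 (-0.027) with arrays centred. With 1 array left out, Umodl1 ran from -0.051 to 0.058 and Kmo from -0.17 to 0.10. With 1 array fewer there are also fewer arrays to test, and the cause of the other changes was not tested. Among genes named by the rule, the receptors left aside, the replicate block changed the call of Rgs5 and Per1 only.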
